A study of Mus musculus with 8 samples.

Results

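The genes for mitochondrial ribosomal proteins were examined in gastrocnemius, a calf muscle, of aged mice after transplantation of blood-forming stem cells. Members were the rows of the count table whose symbol is Mrpl or Mrps followed by a number and at most 1 of the letters a, b or c, with a total of at least 80 counts over the 8 libraries. This gave 77 of 35949 genes, 48 with an Mrpl symbol (large subunit) and 29 with an Mrps symbol (small subunit). The rule uses symbols and total counts, not a difference between the groups. Their totals ran from 1454 to 24493 counts, and all 77 also passed the filter on low counts of the test.

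The study's description names the donor cells as either SIRT3 overexpressing or control, SIRT3 being a deacetylase of mitochondria. The genotype labels are T3TG (n = 4) and WT (n = 4), read here as the SIRT3 and the control arm, the sample names start with T3 and Mx1, which the labels do not explain, and all 8 libraries share the tissue and the polyA selection of the RNA. The transplanted cells give rise to blood and immune cells, and muscle fibers belong to the host. Neither the age in numbers, sex or strain of the mice, nor the promoter behind the overexpression, nor the share of donor cells in the muscle is given in the sources used here. Nothing in the labels says that each library is a separate animal, so the p-values reflect only how far these samples scatter, and that scatter may be technical.

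Mitochondria make a small set of respiratory chain subunits on their own ribosome. Its rRNAs come from mitochondrial DNA, but all of its proteins are encoded in the nucleus, made in the cytosol and imported. The small subunit binds the mRNA and decodes it, and the large subunit forms the peptide bonds and feeds the product into the inner membrane. Proteins with a bacterial counterpart form the core, and proteins found only in mitochondria cover its surface. In muscle, whose fibers rely on respiration, loss of single members causes respiratory chain disease in humans.

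Library totals were 16.8 to 28.1 M counts in T3TG and 16.2 to 21.5 M counts in WT. In T3TG replicates 2 and 3, 97.5% and 98.0% of the values from 10 to 99 were even numbers, against 50.5% to 52.5% in the other 6 libraries. The cause was not tested, and values without these libraries are given at the end for some of the members named below. Of the 14064 genes tested with edgeR's quasi-likelihood test, 10 were called at a Benjamini-Hochberg adjusted p under 0.05, which is 0.0711%, and 0 of these were lower in T3TG. Sirt3 in the muscle had 17.7 ± 2.50 CPM (counts scaled to a common library size with TMM factors) in T3TG and 18.9 ± 2.49 CPM in WT (SD, n = 4 each), a log2 fold change of -0.09 (SE 0.13).

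Muscle identity was plain in every library: 9 myofiber markers, 1 of them higher in T3TG, summed to between 116084 and 149201 CPM in T3TG and between 125800 and 142498 CPM in WT. Markers of fibro-adipogenic progenitors were higher in T3TG in 6 of 6, 2 of them called by edgeR, with summed levels of 867 to 1139 CPM in T3TG and 659 to 806 CPM in WT. Macrophage markers, also higher in 6 of 6, summed to 88.6 to 142 CPM in T3TG and 69.1 to 81.7 CPM in WT. These 2 sums did not overlap between the groups, whereas those of 4 other lists did: adipocyte (5 of 5 tested higher, 163 to 336 CPM in T3TG, 153 to 214 in WT), tenocyte (2 of 4 tested higher, 60.5 to 77.5 CPM in T3TG, 42.9 to 97.6 in WT), Schwann cell (4 of 5 higher, 165 to 199 CPM in T3TG, 97.2 to 252 in WT) and endothelial cell (5 of 6 higher, 315 to 379 CPM in T3TG, 255 to 322 in WT). Red blood cell transcripts, higher in 5 of 5, stood at 523 CPM in T3TG replicate 3 and between 67.6 and 133 CPM in the other 7 libraries. Of the marker genes, Lep and Mkx fell under the filter on low counts, with at most 37 and 14 counts in a library, and none was at 0 throughout. The part of these cell types in the results on ribosomal proteins was not tested, and in bulk tissue fewer cells of a type and less RNA per cell cannot be told apart.

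Mitochondrial ribosomal protein transcripts were slightly lower in T3TG than in WT muscle in most members, and no member passed the test across all genes. Of the 77 members 70 (90.9%) had a negative log2 fold change, against 50.9% of all genes tested and 55.8% of the 7332 other genes in the same range of CPM. The count of lower members was 57 without WT replicate 3, 62 without T3TG replicate 4, 63 without WT replicate 4, and 57 with library totals in place of TMM factors, a scaling that raised the median of all genes to 0.05. Subunits of respiratory complex I were lower in 36 of 36 (median log2 fold change -0.14) and cytosolic ribosomal proteins in 77 of 81 (median -0.12), so the direction was shared with other sets of genes. The members' median was -0.11, a difference of -7.50%, where the median over all genes tested was below 0.01 in size at -0.0043. The large subunit had a median of -0.12 with 44 of 48 members lower, and the small subunit -0.09 with 26 of 29 lower. Members share the 8 libraries and move together in them, so that their number does not count as replication.

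By edgeR's quasi-likelihood test with Benjamini-Hochberg adjustment 0 of the 77 members were called, and the lowest adjusted p was 0.329. DESeq2's Wald test also called 0, with a lowest adjusted p of 0.216, against 0.793% of the genes that it could adjust. At an unadjusted edgeR p under 0.05 there were 5 members lower (6.49%) and 0 higher, where all genes tested gave 2.45% lower and 5.88% higher. The SE of the log2 fold change ran from 0.08 to 0.16 over the members. For all 77 the 95% interval excluded a change of 1.5-fold in either direction, reaching from -30.3% for Mrpl14 at the low end to 35.6% for Mrps2 at the high end. These intervals rest on the scatter of these libraries, which may be technical, and may not hold between animals.

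**Figure D1:**
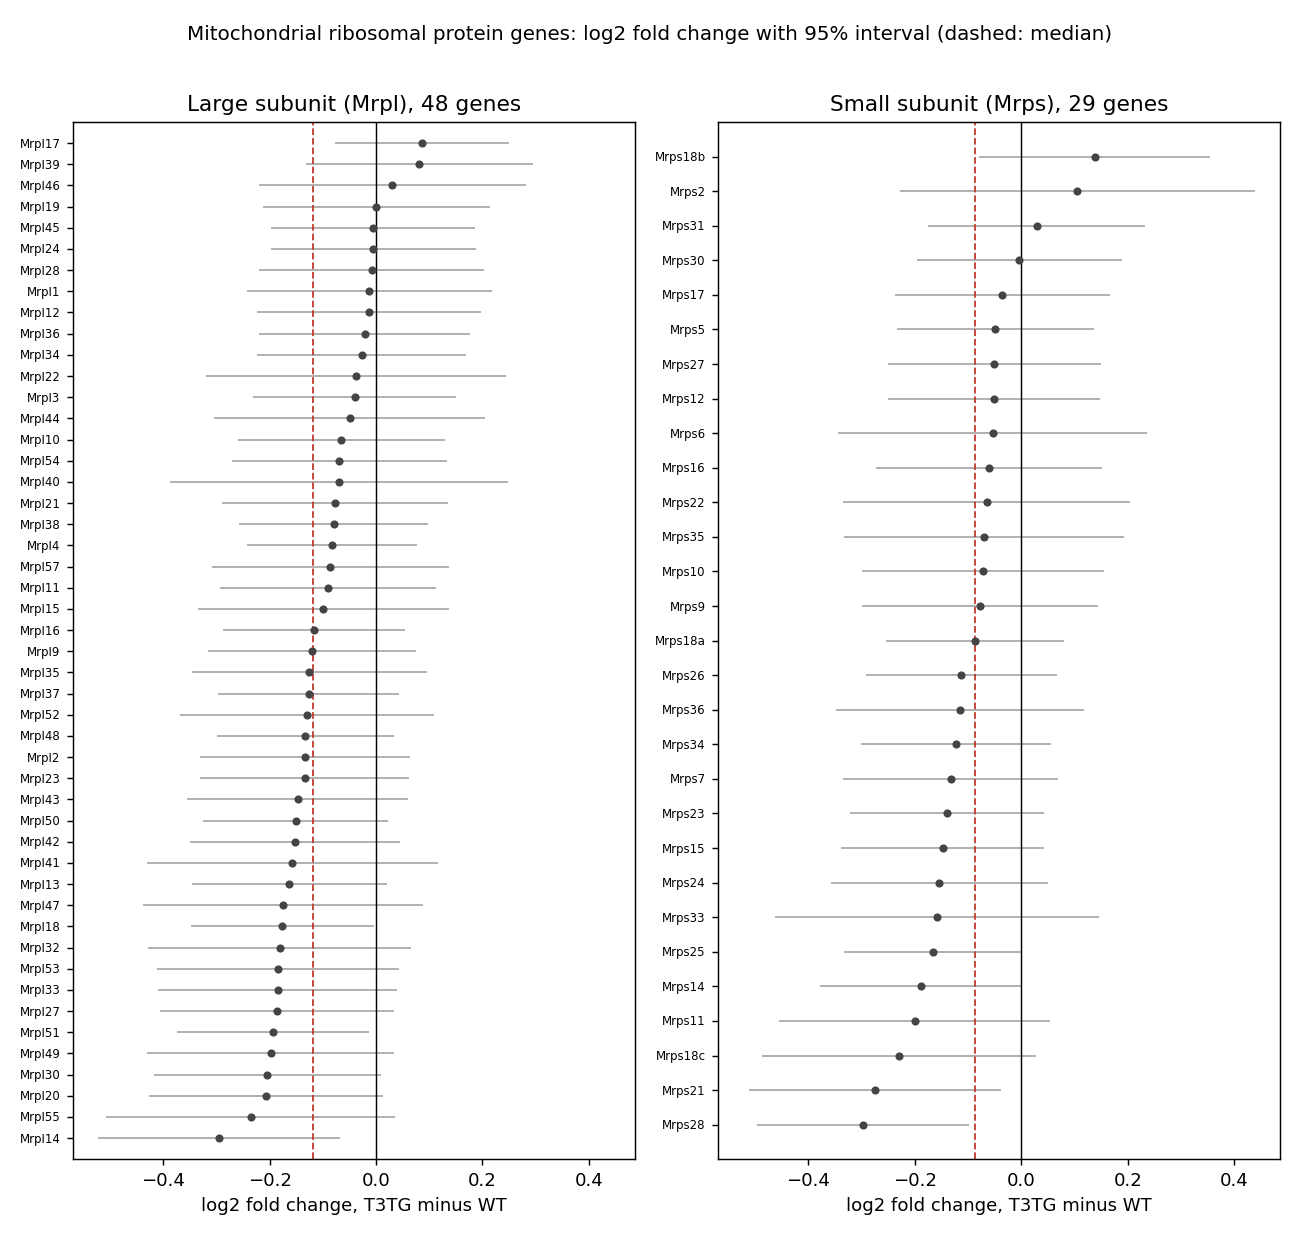
Log2 fold change (T3TG minus WT, x axis) of each large subunit gene (left, 48 genes) and small subunit gene (right, 29 genes), with its 95% interval as a line and the subunit's median dashed. Most points lie left of 0, with medians of -0.12 and -0.09, and most intervals cross 0.

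The level of a whole subunit spanned a wider range among the WT libraries than the difference between the groups. Large subunit genes had a median deviation from the WT mean of -0.11, -0.09, -0.05 and -0.17 (log2 CPM) in T3TG replicates 1 to 4. In WT replicates 1 to 4 the same medians were -0.14, -0.05, 0.13 and 0.08. Small subunit genes stood at -0.11, -0.13, -0.02 and -0.16 in T3TG, and at -0.08, -0.07, 0.12 and 0.10 in WT. For both subunits WT replicates 3 and 4 were high, and WT replicates 1 and 2 lay within the range of the T3TG libraries, so the groups overlapped. The median of all genes tested stayed between -0.0021 and 0.0099 in every library, a closeness to 0 that TMM scaling is made to give.

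**Figure D2:**
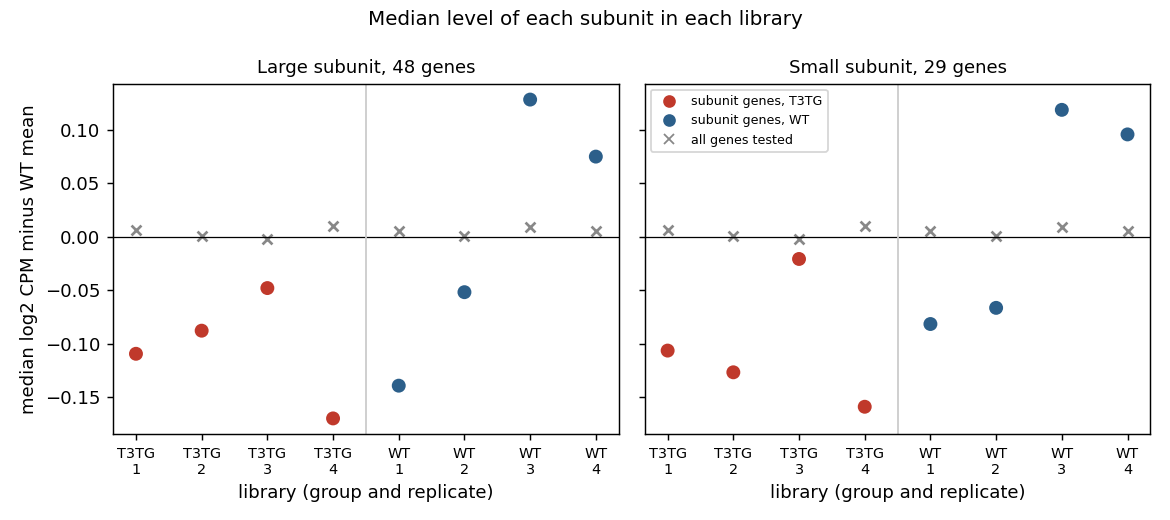
Median over the genes of each subunit of log2 CPM minus the WT mean (y axis) in each library (x axis), with T3TG in red, WT in blue and the median over all genes tested as grey crosses. WT replicates 3 and 4 are the libraries above 0 in both panels, and WT replicates 1 and 2 sit among the T3TG libraries.

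Counted gene by gene, 71 of the 77 members were above their mean over the 8 libraries in WT replicate 3 and 68 in WT replicate 4. The same count was 19, 27, 43 and 13 in T3TG replicates 1 to 4, and 17 and 39 in WT replicates 1 and 2. T3TG replicate 4 held the lowest value of the 8 libraries for 28 members, and WT replicate 3 the highest for 35. The SD of log2 CPM was larger in WT than in T3TG for 45 of 77 members, and for 50.05% of all genes tested. Its medians over the members were 0.12 in T3TG and 0.15 in WT. For 45 members the difference between the groups was smaller than the SD in WT, a count not made over all genes.

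**Figure D3:**
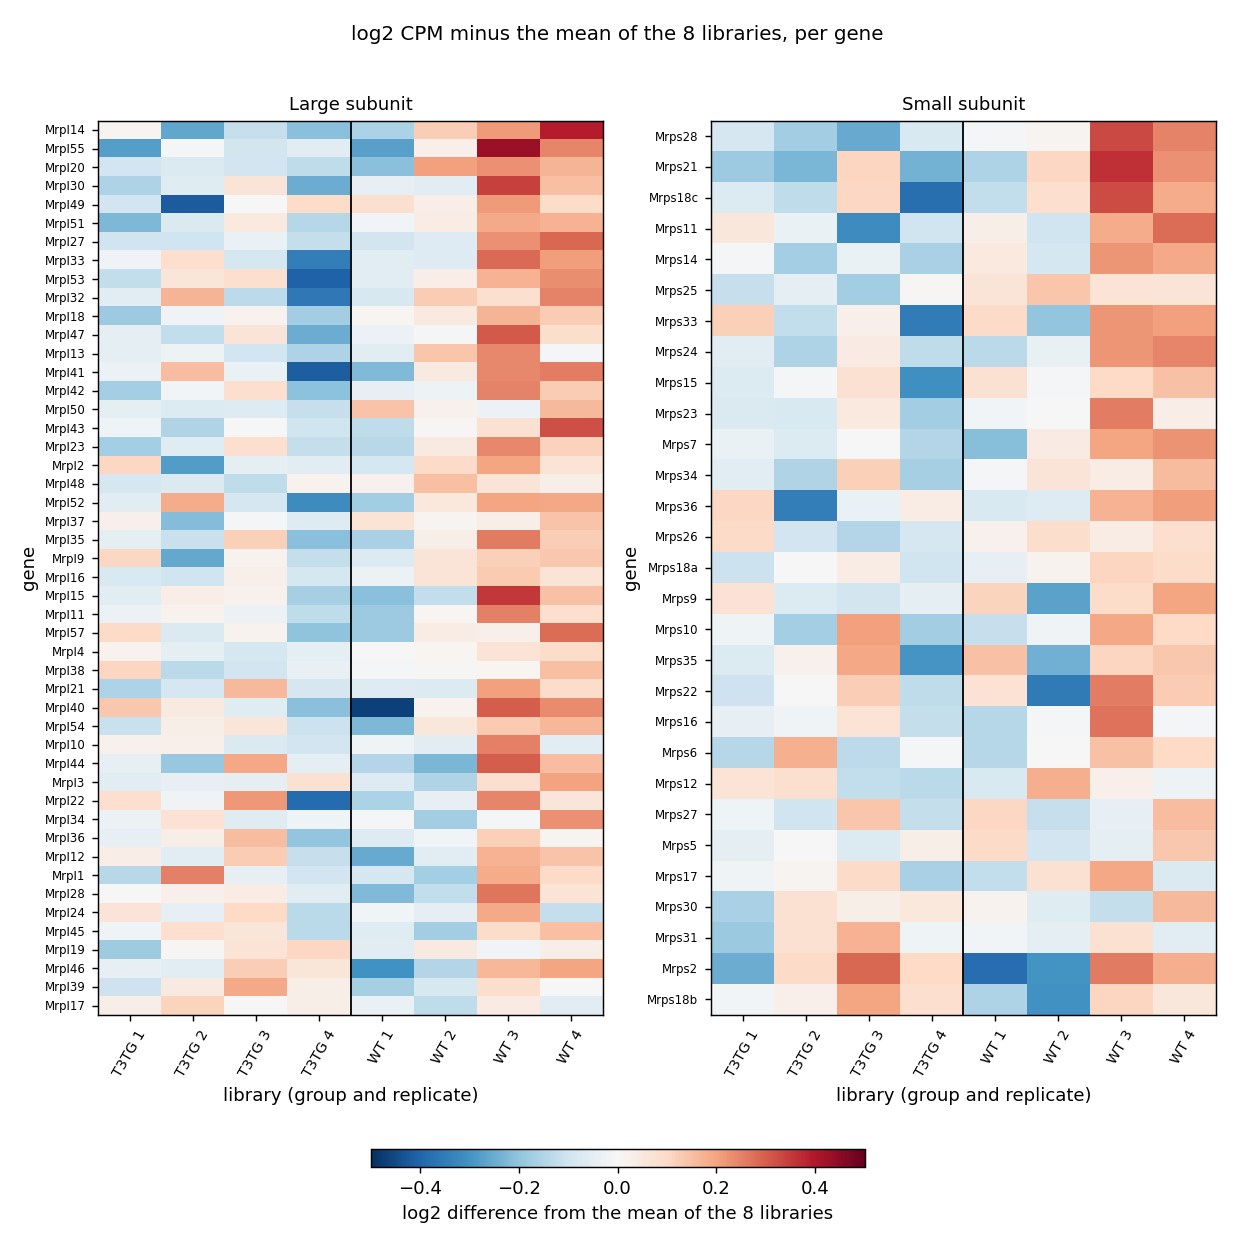
Log2 CPM minus the mean of the 8 libraries (colour) for each member (rows, ordered by log2 fold change from the most negative at the top) in each library (columns, T3TG left of the line, WT right). The columns of WT replicates 3 and 4 are red through most of both panels, and T3TG replicate 4 is blue in most rows.

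The balance of the 2 subunits was nearly the same in all libraries. Summed over its 48 genes, the large subunit had 2257 ± 98.1 CPM in T3TG and 2445 ± 213 CPM in WT. The 29 small subunit genes summed to 1062 ± 46.9 CPM in T3TG and 1154 ± 82.5 CPM in WT (SD, n = 4 each), so that both sums differed by about as much, -7.66% and -7.91%. Large over small was 2.12, 2.17, 2.10 and 2.10 in T3TG replicates 1 to 4, and 2.06, 2.13, 2.16 and 2.12 in WT replicates 1 to 4. These ratios ran from 2.06 to 2.17 over the 8 libraries, while the sum of both subunits ran from 3147 CPM in T3TG replicate 4 to 3896 CPM in WT replicate 3.

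Most members followed the common profile. The Pearson correlation of a member's log2 CPM with the mean of the other members over the 8 libraries had a median of 0.71, with 57 of 77 above 0.5, and ran from -0.11 for Mrpl17 to 0.95. These values share library, scaling and depth and are given as a description. Among the 13034 other genes with at least 1 CPM, the closest to the members' mean profile were Atp5j2 and the cytochrome c oxidase subunits Cox4i1 and Cox5a, with correlations of 0.99, 0.98 and 0.98 over the 8 libraries. Atp5j2 encodes a subunit of ATP synthase, and the log2 fold changes of the 3 genes were -0.15, -0.13 and -0.15. Respiratory complex I subunits, as another set of nuclear genes for mitochondria, had -0.11, -0.18, -0.01 and -0.24 in T3TG replicates 1 to 4, and -0.19, -0.07, 0.15 and 0.11 in WT replicates 1 to 4 (median log2 deviation from the WT mean, 36 genes). Cytosolic ribosomal proteins (81 genes by symbol) stood at -0.20, -0.11, 0.13 and -0.27 in T3TG, and at -0.25, -0.04, 0.19 and 0.10 in WT, with T3TG replicate 3 among the high libraries.

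Among large subunit members Mrpl14 had the lowest p. Its protein lies on the face that meets the small subunit and binds the assembly factor Malsu1. Mrpl14, on chromosome 17 from 45685722 to 45698495 (GRCm38.p6, the assembly behind mm10), had 70.6, 58.4, 64.5 and 60.5 CPM in T3TG replicates 1 to 4, and 62.7, 76.2, 81.0 and 91.8 CPM in WT replicates 1 to 4. WT replicate 1 lay inside the T3TG range, and the other WT libraries were above it. On the log2 scale T3TG minus WT was -0.29 (SE 0.11), for which edgeR gave an unadjusted p of 0.0141 and an adjusted p of 0.443. The exact permutation test of the 4 against 4 values, two-sided, had p = 0.0857. The smallest p that this permutation test allows is 0.0286.

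Mrpl51, a protein found only in mitochondria, had 91.8, 102, 111 and 97.3 CPM in T3TG, and 106, 110, 123 and 121 CPM in WT. T3TG replicate 3 overlapped with WT replicates 1 and 2 (log2 fold change -0.19, SE 0.09, edgeR adjusted p = 0.567). Mrpl18, at the central protuberance that touches the tRNAs, had 69.5, 77.9, 79.8 and 69.8 CPM in T3TG, and 79.3, 81.5, 88.7 and 86.1 CPM in WT. A single pair of libraries, T3TG replicate 3 and WT replicate 1, kept its groups from separating (log2 fold change -0.18, SE 0.08, edgeR adjusted p = 0.586). Mrpl30, Mrpl20 and Mrpl13, all core proteins with a bacterial counterpart, had log2 fold changes of -0.20, -0.21 and -0.16, with edgeR adjusted p between 0.626 and 0.654. Mrpl20 was even across T3TG at 24.5, 24.9, 24.5 and 24.0 CPM, and in WT it had 22.6 CPM in replicate 1 and 29.4 to 30.6 CPM in the others.

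The most abundant large subunit transcripts were Mrpl42, Mrpl30 and Mrpl12. Mrpl42, a mitochondria-specific protein, had 150 ± 14.2 CPM in T3TG and 167 ± 16.1 CPM in WT, and Mrpl30 had 105 ± 9.74 CPM in T3TG and 121 ± 16.1 CPM in WT (SD, n = 4 each). Mrpl12 forms the flexible stalk that recruits translation factors and is present in several copies per ribosome. Its level was 116, 109, 124 and 104 CPM in T3TG, and 94.9, 109, 128 and 125 CPM in WT, which gave a log2 fold change of -0.01 (SE 0.10). The sign of so small a value is not fixed: it was 0.04 with library totals in place of TMM factors. Mrpl10 and Mrpl11, the other members assigned to the stalk, had -0.06 and -0.09.

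At the other end of the large subunit Mrpl17 and Mrpl39 had the highest log2 fold changes, 0.09 (SE 0.08) and 0.08 (SE 0.10), with edgeR adjusted p of 0.807 and 0.866. The value of Mrpl39 was 0.03 without T3TG replicate 3 and 0.0008 without both even-count libraries. Mrpl17 had 51.1, 54.1, 50.1 and 51.0 CPM in T3TG, and 48.9, 45.8, 51.5 and 48.1 CPM in WT, so that WT replicate 3 lay within the T3TG range and the other WT libraries lay below it. Both belong to the region around the exit of the polypeptide tunnel, where 6 of the 8 members assigned to it were lower with a median of -0.02. The 5 members assigned to the central protuberance had a median of -0.08, with 4 lower. The 3 assigned to the stalk had a median of -0.06, with all 3 lower. Most members had no region assigned, so these medians may not cover every protein of a region, and their differences were not tested. Mrpl44, a protein with the fold of an RNase that is mutated in human cardiomyopathy, had 34.8 ± 3.88 CPM in T3TG and 36.0 ± 6.23 CPM in WT (SD, n = 4 each; log2 fold change -0.05, SE 0.12).

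Mrps28 had the lowest p of all members. The gene lies on chromosome 3 from 8802146 to 8923857 and encodes the counterpart of a bacterial small subunit protein that is mutated in human respiratory chain deficiency. It had 46.0, 43.1, 40.9 and 46.2 CPM in T3TG replicates 1 to 4, and 48.4, 49.2, 61.1 and 57.8 CPM in WT replicates 1 to 4. Every T3TG library was below every WT library, by a margin that was narrow against WT replicates 1 and 2. The log2 fold change was -0.30 (SE 0.09), a difference of -18.6% with a 95% interval from -29.1% to -6.62%. The unadjusted edgeR p was 0.00597 and the adjusted p 0.329, and the exact permutation test gave its smallest possible p of 0.0286. In the 6 libraries that leave out T3TG replicates 2 and 3, Mrps28 had -0.23 on the log2 scale, and edgeR's unadjusted p was 0.0699. Gene models Gm15466 and Gm15467 overlap the span of Mrps28 in the GENCODE M21 annotation, and its counts may be affected by them.

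Groups without overlap were rare. Of the 77 members 4 (5.19%) had every T3TG library below every WT library, against 1.66% of all genes tested, and 0 had every T3TG library above, against 3.12%. Beside Mrps28 and Mrps25 these were Mrpl48 and Mrpl50, which were named after their values were seen. Mrps25, a mitochondria-specific protein of the small subunit, had 40.9, 42.9, 39.2 and 44.4 CPM in T3TG, and 46.3, 48.7, 46.4 and 46.4 CPM in WT (log2 fold change -0.17, SE 0.08, edgeR adjusted p = 0.604). Mrpl50, likewise mitochondria-specific, had 36.0, 35.6, 35.7 and 34.5 CPM in T3TG, and 41.2, 37.9, 36.6 and 41.7 CPM in WT (-0.15, SE 0.08, edgeR adjusted p = 0.661). Mrpl48, of the central protuberance, had 42.6, 43.0, 41.4 and 45.7 CPM in T3TG, and 45.8, 50.1, 47.3 and 46.1 CPM in WT, with a gap of under 1 CPM between the groups (-0.13, SE 0.08, edgeR adjusted p = 0.688). In Mrps25 and Mrpl48 the high level of WT replicates 3 and 4 seen in most members was absent. In GENCODE M21 the span of Mrpl48 overlaps those of Cox20b, Gm44648 and Rab6a, and Mrps25 overlaps Nr2c2. Their counts may be affected, in a direction that was not tested. RefSeq also lists 1 pseudogene of Mrpl48.

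Mrps21, a small protein of the platform where mRNA leaves, was the most abundant small subunit transcript in CPM. It had 78.0, 75.6, 95.4 and 75.2 CPM in T3TG, and 79.5, 95.2, 114 and 104 CPM in WT. T3TG replicate 3 stood apart within its group and overlapped with WT (log2 fold change -0.28, SE 0.11, edgeR unadjusted p = 0.0254, adjusted p = 0.510). Mrps14, a protein of the head, had 44.7 ± 2.69 CPM in T3TG and 51.0 ± 4.92 CPM in WT (SD, n = 4 each; -0.19, SE 0.09, edgeR adjusted p = 0.604). Mrps11, next to Mrps21 on the platform, had 17.5, 16.4, 13.5 and 15.7 CPM in T3TG, and 17.2, 15.7, 19.1 and 20.4 CPM in WT (-0.20, SE 0.12, edgeR adjusted p = 0.693). Mrps7, whose bacterial counterpart starts the assembly of the head, and Mrps34, a mitochondria-specific protein, were the next most abundant. On the log2 scale Mrps7 had -0.13 (SE 0.10) and Mrps34 -0.12 (SE 0.08).

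Mrps18a, Mrps18b and Mrps18c are 3 relatives of a single bacterial small subunit protein, and their values ran in both directions without a call. Mrps18c, the one that sits at the bacterial position, had 20.7, 19.8, 23.2 and 16.6 CPM in T3TG, and 19.9, 22.9, 27.1 and 24.6 CPM in WT (log2 fold change -0.23, SE 0.12, edgeR adjusted p = 0.653). Mrps18b, elsewhere in the small subunit, had the highest log2 fold change of all members, 0.14 (SE 0.10, edgeR adjusted p = 0.755). Its level was 31.8, 32.6, 36.8 and 34.0 CPM in T3TG, and 28.8, 26.0, 34.6 and 33.4 CPM in WT, where replicates 1 and 2 were low and replicates 3 and 4 were among the T3TG values. Mrps18a, which despite its symbol is part of the large subunit, had 50.3 ± 2.52 CPM in T3TG and 53.4 ± 2.54 CPM in WT (SD, n = 4 each; -0.09, SE 0.08). The differences among the 3 relatives were not tested.

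**Figure D4:**
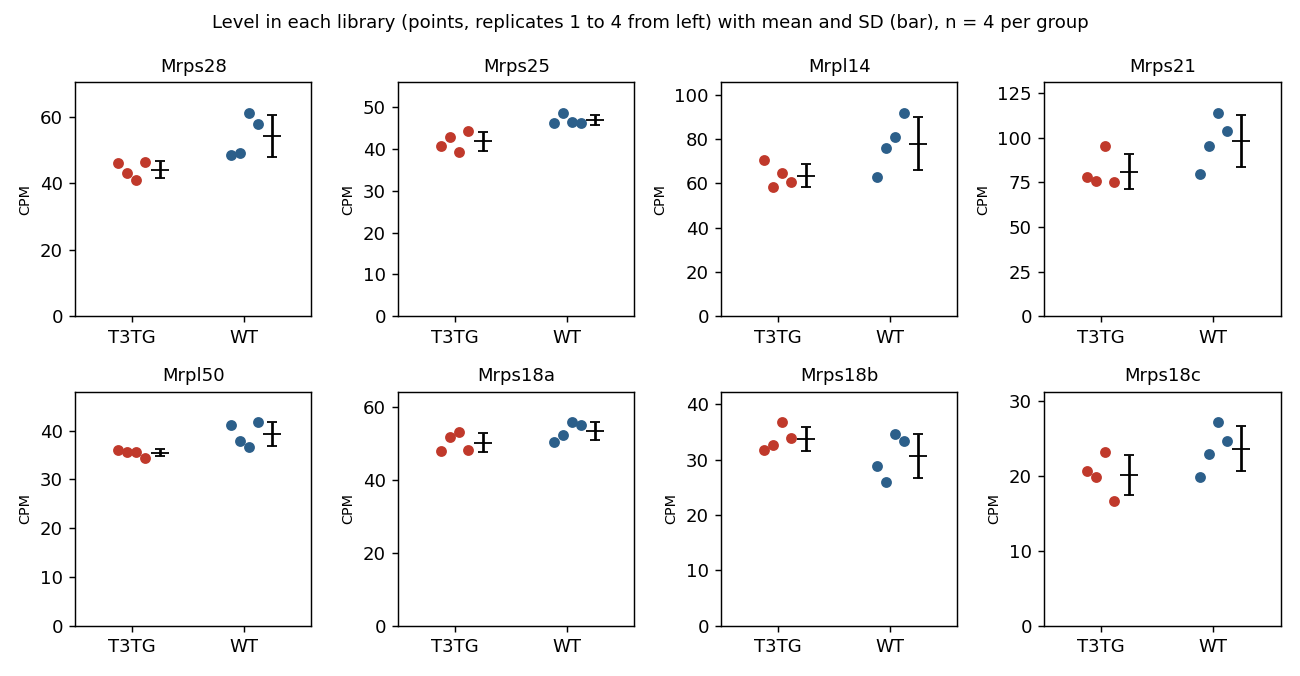
CPM (y axis, from 0) in each T3TG library (red) and WT library (blue) for 8 members, with the mean and SD of each group as a bar (n = 4 each). Mrps28, Mrps25 and Mrpl50 show no overlap of the groups, the groups overlap in Mrpl14 and Mrps21, and of the Mrps18 relatives only Mrps18b has a higher mean in T3TG than in WT.

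Other members named for their role, or as the highest of their subunit, had small differences. Mrps12, a protein of the decoding centre, had 29.7 ± 2.41 CPM in T3TG and 30.8 ± 2.44 CPM in WT, and Mrps22, mutated in human respiratory chain disease, 18.4 ± 1.5 CPM in T3TG and 19.2 ± 3.28 CPM in WT (SD, n = 4 each). Mrps2, at the back of the small subunit, had a log2 fold change of 0.11 (SE 0.16), which was -0.03 without T3TG replicates 2 and 3. Mrps30, another large subunit protein despite its symbol, had 41.4 ± 3.06 CPM in T3TG and 41.4 ± 3.57 CPM in WT. Mrps36 belongs to the 2-oxoglutarate dehydrogenase complex of the citric acid cycle and not to the ribosome. It had 33.6, 24.6, 30.5 and 32.1 CPM in T3TG, and 29.6, 29.9, 35.2 and 36.2 CPM in WT (-0.11, SE 0.11), and 3 pseudogenes in the annotation make its counts uncertain. With Mrps18a and Mrps30 moved to the large subunit and Mrps36 left out, the medians were -0.11 (46 of 50 lower) and -0.09 (23 of 26 lower).

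Core and surface proteins did not stand apart in these medians. The 46 members with a bacterial counterpart had a median log2 fold change of -0.11, with 43 lower, and the 30 mitochondria-specific ones -0.10, with 26 lower. By subunit in the structure the values were -0.11 and -0.11 in the large subunit (30 core and 20 specific members) and -0.11 and -0.09 in the small subunit (16 and 10 members).

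Transcript levels differed widely between members although the proteins, Mrpl12 aside, are present in equal number in a ribosome. Mean levels over the 8 libraries ran from 9.51 to 159 CPM. Per kilobase of the principal transcript in GENCODE M21, the highest levels were those of Mrpl42 at 239, Mrps21 at 201, Mrpl30 at 171 and Mrpl33 at 159 CPM per kilobase, and the lowest those of Mrpl19 at 3.85 and Mrpl47 at 3.94. The median was 32.8 CPM per kilobase in the large and 20.6 in the small subunit. Long annotated transcripts such as that of Mrpl19, with 5000 bases, weigh on this scale if muscle uses a shorter form, which the counts cannot show.

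The members are spread over 17 chromosomes, with at most 10 on one, and many share their start region with a neighbour. In 33 of 77 members (42.9%) a protein-coding gene starts on the opposite strand within 1000 bases, against 15.4% of the other protein-coding genes tested. For 28 of these members the partner was tested and no member itself. These partners had a median log2 fold change of -0.08 with 19 lower, where 50.9% of all genes tested were lower. The 28 members next to them had -0.13 with 27 lower, and the remaining members had -0.08, differences that were not tested. Mrpl46 and Mrps11 form such a pair on chromosome 7 with each other. Mrpl46 had 20.7, 20.5, 23.2 and 22.2 CPM in T3TG, and 17.3, 19.2, 23.9 and 24.4 CPM in WT (log2 fold change 0.03, SE 0.12), against the -0.20 of Mrps11. Of the members, 35 overlap a gene on the opposite strand in GENCODE M21. Since the strand setting of the counting is not given in the sources used here, their counts may be affected.

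Promoter sequences show what sits in front of members with different values. The RefSeq promoter table (GRCm38.p6, 250 bases before to 50 after the start, first start listed per gene) holds 68 of the 77 members. The first 2 below are the members of each subunit with the lowest p in the table, Mrps28 not being among the 68, the next is the member with the highest log2 fold change, and the last 2 are the divergent pair. Capitals mark the letters of 4 motifs searched on both strands: GCGCATG (NRF1), CCGGAAG (ETS family), AAGATGG (YY1) and GGGCGG (SP1). Overlapping matches were counted apart. The windows are chr17:45686099-45686398, plus strand; chr3:95871465-95871764, minus strand; chr17:35916391-35916690, minus strand; chr7:78783040-78783339, minus strand; and chr7:78782881-78783180, plus strand.
Mrpl14: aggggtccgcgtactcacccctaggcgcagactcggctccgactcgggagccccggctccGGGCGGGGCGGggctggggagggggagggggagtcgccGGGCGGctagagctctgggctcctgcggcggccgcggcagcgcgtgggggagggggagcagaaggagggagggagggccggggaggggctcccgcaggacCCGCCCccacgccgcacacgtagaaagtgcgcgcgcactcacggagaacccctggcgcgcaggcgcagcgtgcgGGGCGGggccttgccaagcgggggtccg
Mrps21: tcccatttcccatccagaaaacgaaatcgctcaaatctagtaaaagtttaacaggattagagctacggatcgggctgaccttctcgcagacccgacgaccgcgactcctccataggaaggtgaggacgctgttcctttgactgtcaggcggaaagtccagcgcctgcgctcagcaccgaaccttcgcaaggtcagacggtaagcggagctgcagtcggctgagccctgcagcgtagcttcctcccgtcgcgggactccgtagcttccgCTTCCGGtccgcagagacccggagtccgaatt
Mrps18b: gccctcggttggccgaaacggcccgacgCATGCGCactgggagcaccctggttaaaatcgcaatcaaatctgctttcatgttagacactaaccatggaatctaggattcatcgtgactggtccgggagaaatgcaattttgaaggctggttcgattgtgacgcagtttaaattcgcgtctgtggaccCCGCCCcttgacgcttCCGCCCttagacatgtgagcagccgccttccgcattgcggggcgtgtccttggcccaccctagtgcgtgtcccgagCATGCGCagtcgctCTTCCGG
Mrpl46: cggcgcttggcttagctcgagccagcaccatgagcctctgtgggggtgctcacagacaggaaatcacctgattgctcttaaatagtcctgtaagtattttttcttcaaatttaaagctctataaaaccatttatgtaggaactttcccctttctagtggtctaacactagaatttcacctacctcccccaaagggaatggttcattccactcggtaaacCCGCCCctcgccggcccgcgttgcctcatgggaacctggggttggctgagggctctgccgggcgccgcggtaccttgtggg
Mrps11: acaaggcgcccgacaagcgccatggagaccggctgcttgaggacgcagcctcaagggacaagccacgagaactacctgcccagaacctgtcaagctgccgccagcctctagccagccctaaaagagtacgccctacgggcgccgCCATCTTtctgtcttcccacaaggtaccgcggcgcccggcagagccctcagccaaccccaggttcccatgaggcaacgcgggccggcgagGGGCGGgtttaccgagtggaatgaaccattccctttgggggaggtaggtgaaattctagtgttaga

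Mrpl14, with the most negative log2 fold change in the large subunit, holds 5 SP1 matches and no other in its window. That window lies inside the gene's span, which starts at 45685722, and so does not cover the region before that start. Mrps21 holds 1 ETS match near its start, and Mrps18b holds 2 NRF1, 2 SP1 and 1 ETS match. The windows of Mrpl46 and Mrps11 share 141 bases, read from opposite strands, and with them 1 SP1 match, while an AAGATGG match lies in the Mrps11 window outside the shared part. Over the 68 members, CCGGAAG was present in 24 promoters (35.3%) and AAGATGG in 13 (19.1%), where 17.0% and 7.04% of the 10493 promoters of other genes tested held them. GCGCATG was present in 8 (11.8%, against 6.74%) and GGGCGG in 34 of 68, against 62.2%. These matches are descriptions of letters in a window and were not tested against the values.

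Other proteins of mitochondrial translation were looked up in 5 lists, and 0 of their genes were called by the edgeR test. Mitochondrial ribosomal proteins with other symbols were lower in 5 of 6 (median log2 fold change -0.06), among them Chchd1 with -0.21 (SE 0.11) and the GTP-binding protein Dap3 with -0.15 (SE 0.09). Assembly and rRNA processing factors were lower in 23 of 29 (median -0.07). With the even-count libraries, T3TG replicates 2 and 3, left out, 15 of the 29 were lower (median -0.03). Dhx30, a helicase of ribosome assembly, had 34.8, 36.0, 34.9 and 33.2 CPM in T3TG, and 39.4, 37.4, 38.1 and 37.5 CPM in WT, with no overlap, and Ddx28, another helicase, was above in every T3TG library with 17.6 ± 1.94 CPM in T3TG and 15.6 ± 0.320 CPM in WT (SD, n = 4 each). On the log2 scale Dhx30 had -0.13 (SE 0.08, edgeR adjusted p = 0.688) and Ddx28 0.17 (SE 0.11, edgeR adjusted p = 0.722). Both were named for the lowest p of their list. Of all genes tested, 1.66% lay without overlap below WT and 3.12% above.

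Translation factors were lower in 13 of 18 (median -0.05). Mtrf1, a release factor homolog, had 12.4, 10.7, 11.3 and 11.8 CPM in T3TG, and 14.6, 16.2, 15.1 and 13.6 CPM in WT, all T3TG values below all WT values (log2 fold change -0.37, SE 0.12, edgeR adjusted p = 0.330). Mtif3, an initiation factor, had 37.1 ± 4.42 CPM in T3TG and 44.0 ± 1.53 CPM in WT (SD, n = 4 each; -0.24, SE 0.09, edgeR adjusted p = 0.477). The enzymes that charge mitochondrial tRNAs were lower in 8 of 20, with a median of 0.01. The row of Lars2, which charges leucine tRNA, had 1226, 610, 1207 and 1268 CPM in T3TG, and 1491, 1439, 1408 and 1306 CPM in WT, without overlap. Its log2 fold change was -0.39 (SE 0.21, edgeR adjusted p = 0.669), with T3TG replicate 2 far below the rest. Iars2, the isoleucine counterpart, had 67.8 ± 1.32 CPM in T3TG and 73.9 ± 2.65 CPM in WT (SD, n = 4 each). The groups of Iars2 did not overlap either, and its log2 fold change was -0.13 (SE 0.07, edgeR adjusted p = 0.683). Why the Lars2 row stood so far above that of Iars2 was not tested. Factors of mitochondrial transcription and DNA maintenance were lower in 7 of 10 (median -0.11), with Tfam, which packs mitochondrial DNA and starts its transcription, at -0.15 (SE 0.09) and Polg2, the accessory subunit of the DNA polymerase, at -0.49 (SE 0.24). The differences between these lists and the ribosomal proteins were not tested. The 2 mitochondrial rRNAs had no row under the symbols searched.

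Most members were also lower when the even-count libraries, T3TG replicates 2 and 3, were left out. In those 6 libraries 72 of 77 members had a negative log2 fold change, the large subunit median was -0.14 and the small subunit median -0.14, against -0.12 and -0.09 in 8 libraries, and 0 members were called by edgeR (9 at an unadjusted p under 0.05). Among the members named above, Mrpl18 had -0.27, Mrpl30 -0.31, Mrpl42 -0.27, Mrps18a -0.15 and Mrps22 -0.16 in these 6 libraries, each more than 1.5 times its value in 8. Smaller in size were Mrps11 at -0.13, Mrps2 at -0.03 and Mrps36 at 0.01, and Mrpl14 had -0.25, for which edgeR's unadjusted p was 0.0944. A single left-out library moved the number at an unadjusted edgeR p under 0.05 from 5 to 17 without WT replicate 1, to 11 without T3TG replicate 3, to 3 without T3TG replicate 1 or WT replicate 3, and to 1 without WT replicate 4. The small subunit median was -0.14 without WT replicate 2.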

How the data were processed

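Gastrocnemius RNA was measured in 8 libraries, 4 labelled T3TG and 4 WT by genotype. Per the labels' protocols, polyA-enriched libraries were sequenced as read pairs. The authors deposited raw counts per gene symbol, and the submitters' processing notes list HISAT2 2.2.1, HTSeq 0.9.1, DESeq2 1.34.0 and the mm10 build. The sources used here do not state the annotation or the strand setting. Of 35976 rows, 27 that hold a calendar date (0.0885% to 0.0961% of counts) were left out.

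Genes were filtered with filterByExpr, TMM-scaled and tested with edgeR 4.0.16 (quasi-likelihood, robust, R 4.3.3), T3TG minus WT, with Benjamini-Hochberg adjustment over 14064 genes. The SE is the log2 fold change's size over the square root of F. Library deviations use log2 CPM with prior count 2. Members and lists were chosen with earlier results of these data known. Named members are, per subunit, the 6 with the lowest p, the 3 most abundant, the 2 with the highest log2 fold change, any called, and 10 chosen for their role, of which Mrpl58 stands in the table as Ict1 and counts with other symbols. Of each other list the 2 with the lowest p are named, and the 3 genes closest in profile. Scripts were tested on simulated data. Alternatives were other scaling and filters, DESeq2 1.42.0, voom of limma 3.58.1, a block on title numbers, halved or left-out even-count libraries, and leaving out each library.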

Additional observations from a re-analysis of the deposited data

Results flagged for a closer look

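In 3 of the 58 groups of 4 libraries looked at, 1 library lay far from the other 3, about what chance gives (1 in 20). Mrps21 had 95.4 CPM in T3TG replicate 3, against 75.2 to 78.0 CPM in the other T3TG libraries. Mrpl20 had 22.6 CPM in WT replicate 1, against 29.4 to 30.6 CPM in the other WT libraries. Mrps25 had 48.7 CPM in WT replicate 2, against 46.3 to 46.4 CPM in the other WT libraries.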

How the results depend on the processing

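In all 18 fits, 0 members were called. The number of genes called among all tested was 10, and 52 with library totals only, 107 with no filter on low counts, 105 with DESeq2, 4 with the replicate block on the first title number, 0 with the even-count libraries left out, and between 0 and 37 with 1 library left out. It was 37 without T3TG replicate 1, 3 without T3TG replicate 3, 5 without WT replicate 3, 1 without WT replicate 4, and 0 without T3TG replicate 2 or 4 or WT replicate 1 or 2. Calls were higher in T3TG in all 10, all 52, 104 of the 107 and 99 of the 105. Both subunit medians stayed negative in every fit, from -0.165 to -0.0800 (large) and from -0.144 to -0.0738 (small) with 1 library left out. Library totals alone gave -0.0681 and -0.0372, with the median of all genes at 0.0459, so the distance to it was -0.114 and -0.0831. Of the 77 members 49 were negative and 3 positive in all 18 fits. The rest changed sign in at least 1 fit. Among the named members alone, the sign turned for Mrpl12 (0.0375), Mrps30 (0.0449) and Mrps12 (0.0021) with library totals, for Mrps2 (-0.0348) and Mrps36 (0.0056) without the even-count libraries, and for Mrps22 (0.0206) under the block. With 1 library left out, Mrpl12 ran from -0.0987 to 0.0444, Mrps2 from -0.0006 to 0.213, Mrps30 from -0.0421 to 0.0510, Mrps12 from -0.0930 to 0.0016, Mrpl44 from -0.129 to 0.0483 and Mrps22 from -0.176 to 0.0118. The cause was not tested. The title numbers have no stated meaning, and under the block 7 members had an unadjusted edgeR p under 0.05. WT replicates 1 and 3 share their first title number with no other library, so they add nothing to the group difference in that fit. Members had 143 to 4607 counts in a library, so none was near the limit of detection.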
